A study of Mus musculus with 4 samples.

Results

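The interleukin-6 (IL-6) family was examined in the mouse carotid artery before and after wire injury, by the cell classes that held the transcripts of its ligands and of its receptors. The family was taken as 10 genes chosen by name. They comprised the ligands Il6, Il11, Lif and Osm, the receptor chains Il6ra, Il11ra1, Osmr, Lifr and Il6st, and the feedback inhibitor Socs3. All 10 were among the 31053 genes listed in each of the 4 libraries, and each had unique molecular identifiers (UMIs, counts of captured transcripts) in the 5619 cells kept, from 129 UMIs for Il11 to 14442 for Il11ra1.

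Cells were taken from carotid arteries of male C57BL/6 mice that were 11 weeks old before the operation, with no genetic alteration and no drug named in the labels. The groups were uninjured vessels (day 0) and vessels at days 3, 7 and 14 after wire injury, in which a wire passed through the left carotid damages its wall. By the study's methods each library pooled several vessels, thrombosed arteries were left out, and the tissue was digested with enzymes for 1 h and freed of dead cells. Each time point was 1 library, so no difference between days was tested, and the day, the pool of mice and the preparation cannot be told apart.

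The ligands of this family signal through complexes that hold Il6st, the signal-transducing chain that they share, together with chains that differ between ligands. Il6ra binds IL-6 and Il11ra1 binds IL-11, whereas Osmr pairs with Il6st for oncostatin M and Lifr pairs with Il6st for leukaemia inhibitory factor. Engaged Il6st activates JAK kinases and the transcription factor STAT3, and Socs3, itself a STAT3 target, binds Il6st and shuts the signal off. A soluble form of the IL-6 receptor also lets cells without Il6ra respond. In injured arteries, the family is known for its part in inflammation and in the activation of wall cells.

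Promoter windows of 300 bases, from 250 before to 50 after the start site, were read from RefSeq (GRCm38.p6) for 9 of the 10 genes, whereas Osm had none in the table used. They were searched on both strands for TTCNNNGAA, a motif bound by STAT factors, and for TGANTCA, the AP-1 motif bound by Fos and Jun proteins. Each of these motifs reads the same on both strands. Of the 32851 windows of all genes, 8.30% held the STAT motif and 7.81% the AP-1 motif, and the motifs did not overlap in the windows shown. Among the windows of the 9 genes, the STAT motif was found in that of Socs3, once, beginning 154 bases before the start site, and the AP-1 motif was found in those of Il6, Lif, Osmr and 1 of 2 start sites of Il11. The windows of Il6, the ligand that names the family, and of Socs3, its feedback target, are shown because the levels of both genes differed between the days in fibroblast-like cells and in myeloid cells, with each motif in capitals. A match is a description of the sequence, and no binding was measured.
Il6, chr5:30012864-30013163, plus strand, AP-1 motif in capitals: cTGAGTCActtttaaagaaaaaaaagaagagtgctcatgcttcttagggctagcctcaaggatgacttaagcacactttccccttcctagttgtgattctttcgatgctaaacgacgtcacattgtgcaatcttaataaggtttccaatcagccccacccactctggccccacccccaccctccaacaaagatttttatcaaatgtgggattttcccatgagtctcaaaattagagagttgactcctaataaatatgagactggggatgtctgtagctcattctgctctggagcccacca
Socs3, chr11:117969317-117969616, minus strand, STAT motif in capitals: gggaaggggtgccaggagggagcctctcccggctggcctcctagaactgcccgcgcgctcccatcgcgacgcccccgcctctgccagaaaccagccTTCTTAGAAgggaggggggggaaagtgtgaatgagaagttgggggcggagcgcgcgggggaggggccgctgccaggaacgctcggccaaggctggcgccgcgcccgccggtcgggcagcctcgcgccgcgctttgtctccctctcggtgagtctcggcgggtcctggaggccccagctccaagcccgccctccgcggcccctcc

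The libraries of days 0, 3, 7 and 14 held 2672722, 18989081, 27973418 and 13329564 UMIs, and 329, 1506, 2693 and 1091 cells were kept. The authors' cell annotation was not used here, so the cells were clustered anew and 9 classes were named from marker genes ("fibroblast-like" and so on), and wherever a class had at least 15 cells, all of its markers (7 to 14 per class) were detected. Dendritic-like cells also held monocyte/macrophage markers, at a sum of 2249, 2802 and 2464 CPM at days 3, 7 and 14 beside 3289, 2767 and 2720 for their own, while monocyte/macrophage-like cells had 22635, 21404 and 24978 CPM of the former and at most 411 of the latter on these days. The day 0 library was mostly fibroblast-like (234 cells) with 15 smooth muscle-like, 18 T cell-like and 3 monocyte/macrophage-like cells, so the immune classes were compared from day 3. Different clusters made up a class on different days. Fibroblast-like cells came mainly from clusters led by Rbp4 and by Clec3b at day 0, by Clec3b, Tnfrsf11b and Saa3 at day 3, by Tnfrsf11b at day 7 and by C1qtnf3 at day 14. Depth also differed, with a median of 8119.5, 2685.5, 20757 and 18192.5 UMIs per fibroblast-like cell at days 0, 3, 7 and 14. Levels are therefore given as UMIs per 1000000 UMIs of the class in that library (CPM), with a 95% exact Poisson interval in parentheses that covers counting error only, and not the spread between cells or mice. Shares carry an exact binomial (Clopper-Pearson) interval of the same kind, and levels were compared within a gene and not between genes. The 705 cells (12.5%) that met no class are called unnamed, and 212 barcode sequences occurred in more than 1 library among the cells kept.

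Il6, the founding cytokine of the family, was held mainly by fibroblast-like cells after injury. These cells gave 1, 316, 178 and 284 UMIs at days 0, 3, 7 and 14, or 0.45 CPM (0.0114 to 2.50), 59.5 (53.1 to 66.5), 35.5 (30.5 to 41.2) and 31.6 (28.0 to 35.5). Summed over the class, the level was thus highest at day 3 and lower by a ratio of 0.597 (0.494 to 0.720) at day 7, with the exact binomial interval of the ratio in parentheses. This direction turned without the cells over 30000 UMIs, where the ratio was 25.5 (4.33 to 1031) from 1 UMI at day 3, and as a mean of each cell's CPM (1.96). Against the single UMI of day 0, the ratios were 132 (23.6 to 5246), 79.1 (14.0 to 3141) and 70.2 (12.5 to 2783), and these intervals show how little day 0 fixes the size of the change. Without the cells over 30000 UMIs the ratio of day 3 was 3.23, with an interval that included 1. Fibroblast-like cells held 92.4% (at least 89.1) of all Il6 UMIs at day 3, 54.9% (49.3 to 60.4) at day 7 and 83.3% (78.9 to 87.1) at day 14.

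Il6 UMIs were found in 38 of 214 fibroblast-like cells at day 3, in 44 of 197 at day 7 and in 56 of 520 at day 14, against 5 of 538, 25 of 940 and 1 of 191 monocyte/macrophage-like cells, whose median depth was 7557.5, 9024.5 and 6647 UMIs. The 5 cells with most Il6 UMIs held 48.1%, 47.2% and 47.2% of the class total on these days, and the highest single cells held 77, 36 and 37 UMIs. The shares of cells depend on depth, as fibroblast-like cells without an Il6 UMI had a median of 1096 UMIs at day 3 and those with one 66195. At day 3 the transcripts came almost wholly from deep cells, 37 of which held Il6, since 315 of the 316 UMIs were in the 68 cells with over 30000 UMIs (68.2 CPM, 60.9 to 76.1) and 1 UMI was in the other 146 cells (1.45 CPM, 0.0368 to 8.10). The summed level of the 11 fibroblast markers was 52398 CPM in the deep cells and 59479 CPM in the others, and that of the 14 monocyte/macrophage markers was 419 and 672 CPM. No such split was seen later, with 35.1 CPM in deep cells and 37.1 in the others at day 7, and 28.8 and 32.2 at day 14. The part of cell depth in the day 3 level was not tested. Without the cells over 30000 UMIs, the fibroblast-like share of the Il6 UMIs was 6.25% at day 3, where 16 UMIs were left in the library, and 37.8% at day 7.

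**Figure D1:**
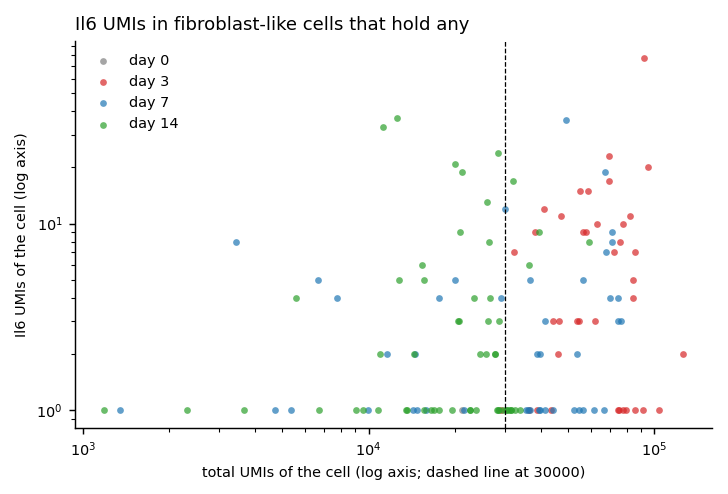
Il6 UMIs of each fibroblast-like cell that held any (y axis, log scale) against the total UMIs of that cell (x axis, log scale), with 1 point per cell coloured by day and a dashed line at 30000 UMIs. At day 3, 37 of the 38 cells lie to the right of the line, while at day 14 most of the 56 cells lie to the left.

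Within the fibroblast-like class, Il6 differed between clusters. The cluster led by Saa3 and Prg4, with a median of 54805 UMIs per cell, had 98.8 CPM (87.3 to 111) at day 3 and 78.7 (63.8 to 96.0) at day 7. The intervals of these days overlapped. The cluster led by Tnfrsf11b and Eln had 20.7, 24.6 and 35.6 CPM at days 3, 7 and 14, with the lowest value at day 3. At day 14 the cluster led by C1qtnf3 had 35.0 CPM (30.2 to 40.3), whereas that led by Igfbp5 had 1.18 (0.03 to 6.60) from 1 UMI in 44 cells. The cluster led by Clec3b and Gsn, whose median depth was 1647.5, 786 and 6420.5 UMIs at days 0, 3 and 7, held no Il6 UMI on these days and 5 in 4 of 56 cells at day 14 (19.7 CPM, 6.41 to 46.0).

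The other classes held the rest, among them unnamed cells with 25.9% and monocyte/macrophage-like cells with 14.5% of the Il6 UMIs at day 7, and endothelial-like cells with 15.0% at day 14. Monocyte/macrophage-like cells had 7, 47 and 1 UMIs at days 3, 7 and 14, or 1.37 CPM (0.549 to 2.81), 5.20 (3.82 to 6.92) and 0.70 (0.0177 to 3.90). Smooth muscle-like cells had 6 UMIs at day 3, in 2 cells, and none at days 0, 7 and 14. Endothelial-like cells reached 951 CPM at day 14, but 45 of their 51 UMIs came from 1 of 24 cells. In that library the 14 monocyte/macrophage markers summed to 4473 CPM in the endothelial-like cells, with 11 detected and Ly6c2, Mrc1 and Chil3 at 0, against 184 and 186 CPM at days 3 and 7, and their part in the value was not tested. Of the 84 Il6 UMIs in unnamed cells at day 7, 42 came from 1 cell.

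**Figure D2:**
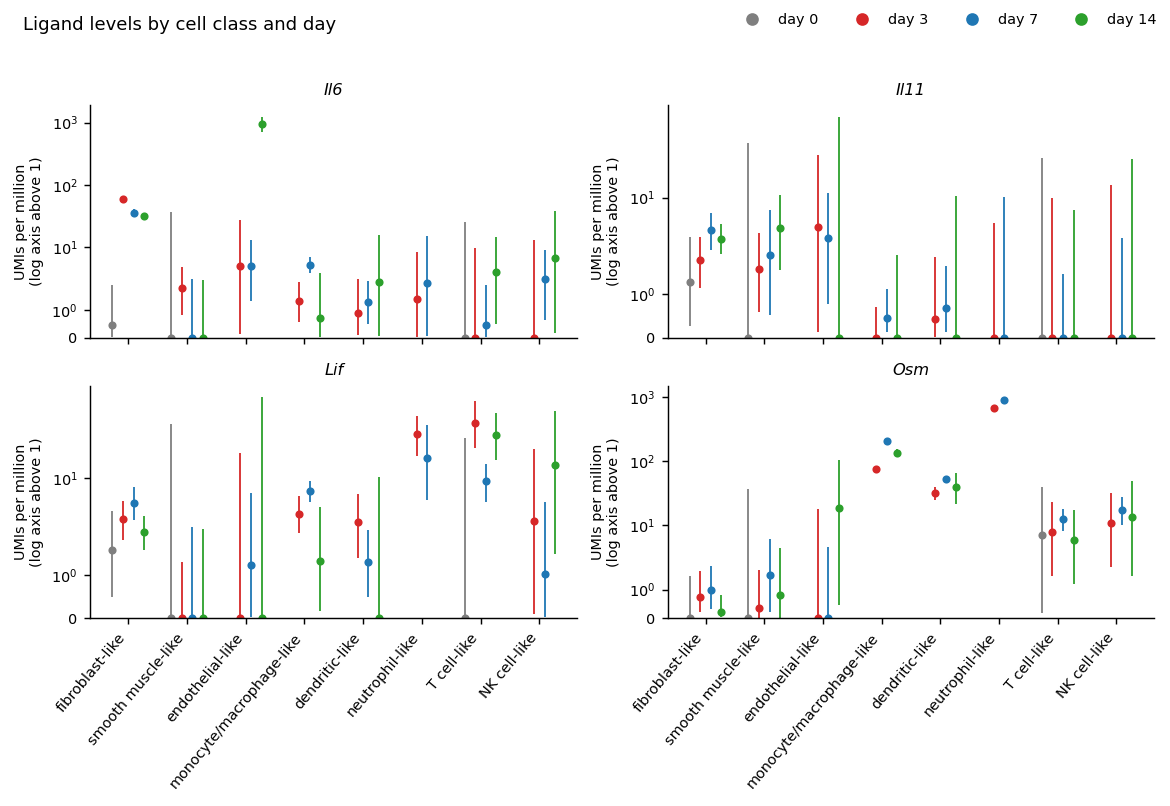
Levels of the 4 ligands (y axis, CPM, linear below 1 and logarithmic above) in each class with at least 15 cells, coloured by day, with points for the level and bars for the 95% Poisson interval. Il6 stands highest in fibroblast-like cells at days 3 and 7 and in the 24 endothelial-like cells at day 14, and Osm stands highest in neutrophil-like cells.

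Osm, which encodes oncostatin M, was a myeloid transcript in each library after injury. Neutrophil-like cells had the highest level, with 456 UMIs (679 CPM, 618 to 745) in 98 of 234 cells at day 3 and 328 UMIs (893 CPM, 799 to 995) in 63 of 120 cells at day 7. Monocyte/macrophage-like cells had 384, 1833 and 192 UMIs at days 3, 7 and 14, or 74.9 CPM (67.6 to 82.8), 203 (194 to 212) and 134 (116 to 155). Their level was higher at day 7 than at day 3 by a ratio of 2.71 (2.43 to 3.03) and was also higher at day 14 (1.79, at most 2.14). The genes that respond to tissue digestion, described beside Socs3, were also higher in these cells, at 5657, 12359 and 18372 CPM in sum, and their part in the Osm and Il6 levels of the class was not tested. Dendritic-like cells lay lower, at 31.9, 52.1 and 39.5 CPM.

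The main holder of Osm changed with the day. At day 3 neutrophil-like cells held 48.9% (45.7 to 52.2) and monocyte/macrophage-like cells 41.2% (38.0 to 44.4) of the 932 Osm UMIs, at day 7 the shares were 12.9% and 72.1% of 2541, and at day 14 monocyte/macrophage-like cells held 86.5% of 222. No cell was classed as neutrophil-like at day 14, and a share depends on the number of cells captured as well as on the level per cell. Fibroblast-like and smooth muscle-like cells had at most 1.70 CPM of Osm on any day, from at most 5 UMIs. With fibroblast-like cells taken as a class that should lack the transcript, 4 of 214 of them held an Osm UMI at day 3 at a median depth of 2685.5 UMIs, against 98 of 234 neutrophil-like cells at 2856.5.

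The higher Osm level at day 7 was found within clusters as well. In the cluster led by Plac8, whose cells numbered 76, 422 and 17 at days 3, 7 and 14, Osm was at 195 CPM (162 to 232), 329 (311 to 347) and 315 (238 to 409). In the cluster led by Ms4a7 and C1qa it was at 22.3 (10.7 to 41.0), 99.5 (89.0 to 111) and 125 (105 to 148). In that led by Ccl6 it was at 60.2 (52.0 to 69.3) at day 3 and 135 (111 to 162) at day 7. The level of day 7 thus lay above that of day 3 in each of these clusters, with intervals that did not overlap.

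**Figure D3:**
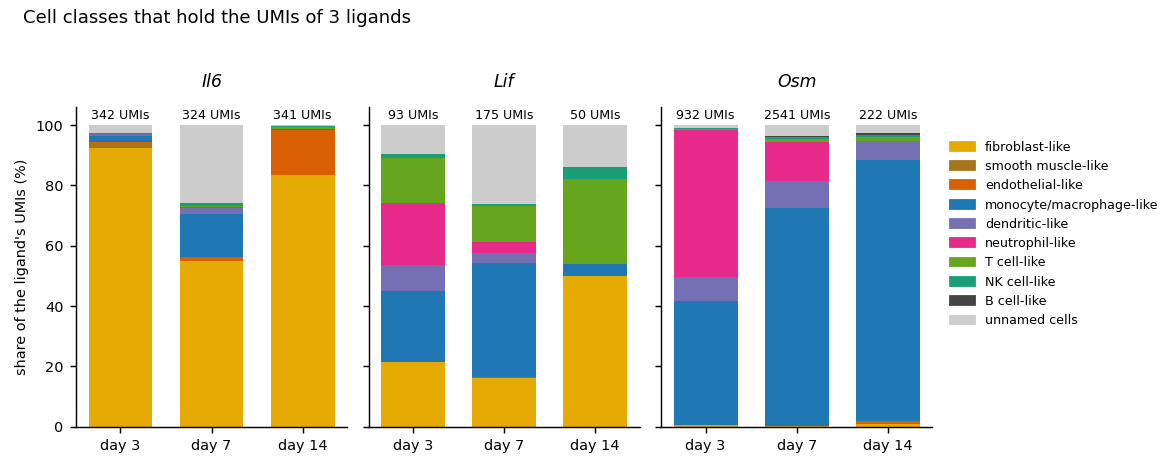
Share of the UMIs of Il6, Lif and Osm (y axis, percent of the library's UMIs of that gene) held by each class at days 3, 7 and 14, with the number of UMIs above each bar. Fibroblast-like cells hold 92.4%, 54.9% and 83.3% of Il6, and Osm passes from neutrophil-like to monocyte/macrophage-like cells.

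Lif, which encodes leukaemia inhibitory factor, was sparse and spread over classes. Its library totals were 4, 93, 175 and 50 UMIs at days 0, 3, 7 and 14. T cell-like cells had 37.2 CPM (20.4 to 62.5) at day 3, where 12 of 14 UMIs came from 1 cell, 9.28 (5.74 to 14.2) at day 7 and 28.1 (15.3 to 47.1) at day 14. Neutrophil-like cells had 28.3 CPM (17.0 to 44.2) and 16.3 (6.00 to 35.6) at days 3 and 7, and these did not differ from the T cell-like level beyond counting error on either day. Fibroblast-like cells stayed between 1.80 and 5.59 CPM over the 4 days, and monocyte/macrophage-like cells had 4.29, 7.31 and 1.40 CPM. No Lif UMI was found in smooth muscle-like cells of any day, where a floor of 3 UMIs is 1.10 CPM at day 3.

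Il11, a ligand known for its actions on fibroblasts, was the scarcest member, with 3, 45, 41 and 40 UMIs in the libraries. Fibroblast-like cells had 1.35 CPM (0.278 to 3.94), 2.26 (1.17 to 3.95), 4.59 (2.91 to 6.89) and 3.78 (2.62 to 5.28) at days 0, 3, 7 and 14. Smooth muscle-like cells had 0, 5, 3 and 6 UMIs, and at day 14 their 4.83 CPM (1.77 to 10.5) did not differ from the fibroblast-like level beyond counting error. Fibroblast-like and smooth muscle-like cells together held each of the 40 UMIs of day 14, in shares of 85.0% and 15.0%. At day 3, 25 of the 45 UMIs came from 1 unnamed cell. Neutrophil-like, T cell-like and NK cell-like cells held no Il11 UMI on any day.

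Il6st, the shared signalling chain, was present in wall cells and low in most immune classes. Fibroblast-like cells had 182 CPM (165 to 201), 238 (225 to 251), 203 (190 to 216) and 187 (178 to 196) at days 0, 3, 7 and 14, and the largest ratio to day 0 was 1.31 (1.17 to 1.47) at day 3, which turned to 0.926 when the libraries were clustered separately. Smooth muscle-like cells had 88.9, 93.1, 152 and 88.6 CPM. On these days the 11 fibroblast markers summed to 4209, 8793, 15041 and 8999 CPM in the smooth muscle-like cells. Their own 11 markers summed to 41898, 24565, 21860 and 43949 CPM. The part of the fibroblast markers in the smooth muscle-like levels of Il6st, Il11ra1, Osmr and Lifr was not tested. Endothelial-like cells had 184 CPM (129 to 253) from 37 UMIs at day 3, 498 (449 to 549) from 391 at day 7 and 1342 (1050.0 to 1690) from 72 at day 14, of which 33 came from 1 cell. In the same cells the monocyte/macrophage markers were at 184, 186 and 4473 CPM and the genes that respond to tissue digestion at 3265, 5740 and 20073 in sum, and their part in the Il6st level was not tested. The ratio from day 3 to day 7 was 2.71, and 7.13 without the cells over 30000 UMIs. The endothelial-like and fibroblast-like levels did not separate at day 3 and did at days 7 and 14. Among immune cells, dendritic-like cells had 55.5, 67.5 and 56.4 CPM and monocyte/macrophage-like cells 35.5, 30.6 and 23.1, where the ratio from day 3 to day 14 of 0.650 (0.435 to 0.946) turned to 1.02 as a mean of each cell's CPM.

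Neutrophil-like cells, in contrast, held 4 Il6st UMIs in 234 cells at day 3 (5.96 CPM, 1.62 to 15.3) and none in 120 cells at day 7, where the floor of 3 UMIs is 8.17 CPM. After each cell had been thinned at random to 2000 UMIs, to remove the depth difference, 3 of 191 neutrophil-like cells (1.57%, 0.325 to 4.52) held an Il6st UMI at day 3 and 0 of 93 at day 7. The same cells had the highest Il6ra level of any class, at 221 CPM (186 to 259) and 163 (125 to 210). A UMI of Il6ra was found in 29.3% (23.0 to 36.3) and 25.8% (17.3 to 35.9) of the thinned cells, and in 38.5% and 35.0% without thinning. In fibroblast-like cells, thinned alike, the Il6ra shares were 4.39% and 2.34% on these days, at a median of 2685.5 and 20757 UMIs per cell before thinning, against 2856.5 and 3019.5 for neutrophil-like cells.

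Il6ra, the chain that binds IL-6, was higher per UMI in myeloid than in fibroblast-like cells on the days after injury. Fibroblast-like cells held 88.9% of the 45 Il6ra UMIs at day 0, 4.72% and 2.18% at days 3 and 7 and 32.9% at day 14. Monocyte/macrophage-like cells had 138 CPM (128 to 148), 124 (117 to 132) and 101 (85.6 to 119) on the 3 days after injury, with a ratio of 0.738 (0.613 to 0.883) from day 3 to day 14. Dendritic-like cells had 107, 103 and 59.2 CPM, and T cell-like cells 31.9, 33.6 and 38.1 on the same days. The order neutrophil-like, monocyte/macrophage-like, dendritic-like and T cell-like held at days 3 and 7, but the first pair was not separated at day 7. Fibroblast-like cells had 18.0 CPM (12.8 to 24.5) at day 0 and 11.1, 8.19 and 10.9 at days 3, 7 and 14. The ratio to day 0 of 0.618 at day 3 turned to 1.54 without cells over 30000 UMIs and to 1.94 as a mean of each cell's CPM, and that of 0.606 at day 14 turned to 1.36 by the latter, while with separate clustering of the libraries they were 0.189 and 0.219. At day 7 the ratio was 0.736 (0.378 to 1.36) without the cells over 30000 UMIs and 0.913 as a mean of each cell's CPM. With separate clustering it was 0.160 (0.100 to 0.258). Smooth muscle-like cells had at most 12 UMIs per library, and NK cell-like cells had 1, 0 and 0.

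Il11ra1, the IL-11 receptor chain, marked the wall cells that contract or lay down matrix. In order of days 0, 3, 7 and 14, fibroblast-like cells had 826 CPM (789 to 865), 301 (287 to 316), 532 (512 to 552) and 717 (up to 735). Smooth muscle-like cells followed the same course, with 395 CPM (282 to 538), 170 (155 to 186), 206 (181 to 234) and 305 (275 to 338). The levels were lowest at day 3 in both classes, at ratios to day 0 of 0.365 (0.341 to 0.390) and 0.429 (0.311 to 0.609), and fibroblast-like cells lay above smooth muscle-like cells on each day. The fibroblast-like ratio of day 3 was 0.602 without the cells over 30000 UMIs and 0.794 as a mean of each cell's CPM, by which day 7 (0.709) and not day 3 was lowest. The ratio of 0.868 at day 14 turned to 1.07 when the libraries were clustered separately. The other named classes with at least 15 cells had at most 39.4 CPM. The near-identical gene Il11ra2 is listed under 3 identifiers with 0 UMIs, so reads shared by the 2 genes cannot be assigned with certainty.

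The lower Il11ra1 level of day 3 was not seen in each fibroblast-like cluster. In the cluster led by Clec3b, it was at 683 CPM (605 to 768), 744 (615 to 891), 617 (473 to 791) and 860 (750 to 982) in the same order, so the intervals of days 0, 3 and 7 overlapped. The clusters led by Saa3 and by Tnfrsf11b, with a total of 99 cells at day 3 and too few at day 0 to compare, had 288 CPM (268 to 309) and 275 (255 to 297) at that time. In the latter cluster the level was 543 (515 to 571) at day 7 and 953 (907 to 1002) at day 14. The cluster led by Rbp4 had 928 CPM (882 to 976) at day 0 and 942 (874 to 1015) at day 14.

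Osmr, the oncostatin M receptor chain, was found mainly in wall cells, and no immune class held more than 16 UMIs in any library. Fibroblast-like cells had 49.0 CPM (40.2 to 59.1), 81.9 (74.4 to 90.0), 68.3 (61.3 to 75.9) and 58.3 (53.5 to 63.6), where the ratio of 1.39 from day 0 to day 7 was 2.79 as a mean of each cell's CPM. Smooth muscle-like cells had 19.8 CPM from 2 UMIs at day 0 and 72.2 (62.5 to 83.0), 77.5 (62.4 to 95.2) and 41.1 (30.6 to 54.0) later, and they did not differ from fibroblast-like cells beyond counting error at days 3 and 7. Endothelial-like cells had 24.8 (8.06 to 57.9), 98.0 (77.3 to 122) and 186 (89.4 to 343) at days 3, 7 and 14, from 5, 77 and 10 UMIs. In these cells the monocyte/macrophage markers were at 184, 186 and 4473 CPM on these days. The genes that respond to tissue digestion were at 3265, 5740 and 20073 CPM in sum. Their part in the endothelial-like levels of Osmr and Lifr was not tested. Monocyte/macrophage-like, dendritic-like and neutrophil-like cells, which held the Osm transcripts, had at most 5.45 CPM of Osmr. The Saa3 cluster of fibroblast-like cells had 108 CPM (96.4 to 122) at day 3 and 110 (92.6 to 131) at day 7, above the Tnfrsf11b cluster at 54.1 (45.2 to 64.4) and 56.0 (47.4 to 65.7).

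Lifr, the receptor chain for leukaemia inhibitory factor, was found in wall cells and in mononuclear phagocytes. In fibroblast-like cells it was at 69.2 CPM (58.7 to 81.1) before injury and at 21.9 (18.1 to 26.2), 19.0 (15.4 to 23.2) and 39.1 (35.1 to 43.4) after it, so that each later interval lay below that of day 0. The ratio to day 0 at day 3 was 0.777 without the cells over 30000 UMIs, with an interval that included 1, and 0.983 as a mean of each cell's CPM. At day 14 it was 0.922 when the libraries were clustered separately, also with an interval that included 1, so the lower levels of days 3 and 14 were not resolved under these alternatives. At day 7 the ratio to day 0 was 0.434 (0.290 to 0.632) without the cells over 30000 UMIs. With separate clustering it was 0.445 (0.294 to 0.692), and as a mean of each cell's CPM it was 0.649, within 2-fold. The ratio from day 7 to day 14 was 2.06 (1.64 to 2.61), and 1.34 without the cells over 30000 UMIs, with an interval that included 1. Monocyte/macrophage-like cells had 67.3 CPM (60.4 to 74.8), 42.5 (38.4 to 47.0) and 78.4 (64.5 to 94.3), with the lowest level at day 7. Dendritic-like cells had 61.6, 38.8 and 28.2 CPM, smooth muscle-like cells 49.4, 24.2, 49.4 and 43.5, and endothelial-like cells 109, 87.8 and 168. Neutrophil-like, T cell-like and NK cell-like cells had at most 7 UMIs in any library.

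**Figure D4:**
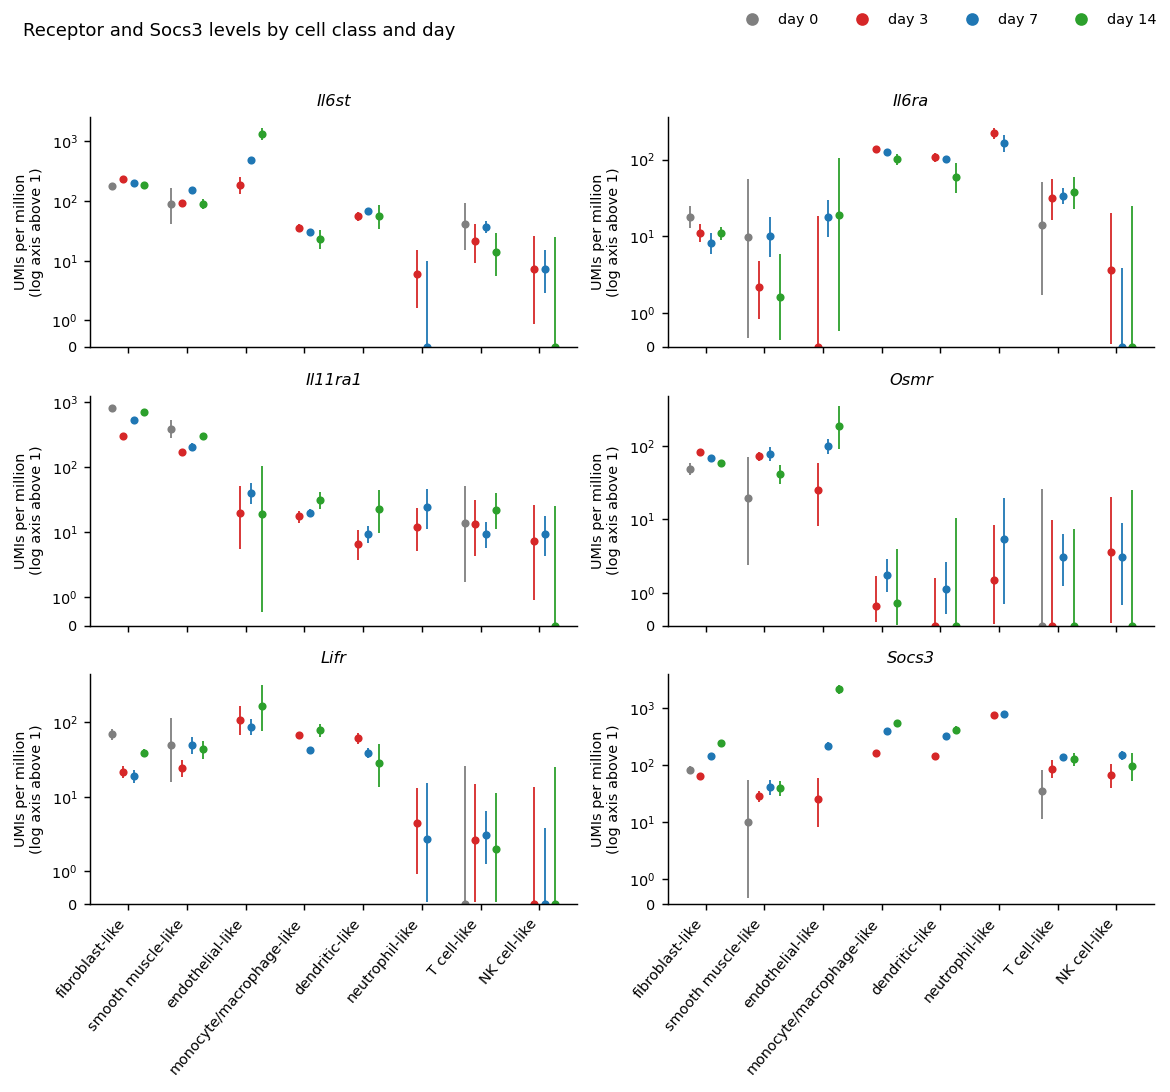
Levels of the 5 receptor chains and of Socs3 (y axis, CPM, linear below 1 and logarithmic above) in each class with at least 15 cells, coloured by day, with points for the level and bars for the 95% Poisson interval. Il11ra1 stands high in fibroblast-like and smooth muscle-like cells, Osmr in wall cells and Il6ra in myeloid cells. Socs3 stands highest in neutrophil-like cells at days 3 and 7 and in endothelial-like cells at day 14, while Il6st is near 0 in neutrophil-like cells.

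Receptor chains work as pairs, so their presence in the same cell was counted after thinning to 2000 UMIs. Il6st was found in 30.3%, 31.6%, 31.0% and 32.2% of fibroblast-like cells at days 0, 3, 7 and 14, of which 185, 114, 171 and 475 were deep enough and 49, 100, 26 and 45 were left out. Its share thus differed little between days, where without thinning it was 61.1%, 52.8%, 81.2% and 83.1%. Il6st together with Il11ra1 was found in 23.8% (17.8 to 30.6), 12.3% (6.88 to 19.7), 19.9% (14.2 to 26.7) and 21.9% (18.3 to 25.9) of them, the commonest of the 4 pairs on each day. Il11ra1, with or without Il6st, was also the commonest of the 4 partner chains, in 75.7%, 39.5%, 54.4% and 68.0% of these cells. Whether any pair occurred more often than the shares of its single chains would give was not tested. Il6st with Osmr was found in 3.24%, 5.26%, 6.43% and 3.79%, and Il6st with Lifr in 4.86%, 1.75%, 1.17% and 1.47%, with intervals that overlapped between days for both pairs. Il6st with Il6ra was found in at most 1.75% of fibroblast-like cells and in 2.24%, 1.78% and 1.52% of monocyte/macrophage-like cells. In dendritic-like cells that pair was found in 1.48%, 3.18% and 0% at days 3, 7 and 14. Of the 28 endothelial-like cells deep enough at day 7, 57.1% (37.2 to 75.5) held Il6st. Il6st with Osmr and Il6st with Lifr were each found in 14.3% (4.03 to 32.7) of these, and Il6st with Il11ra1 in none. In smooth muscle-like cells, Il6st with Osmr was found in 3.95%, 1.92% and 4.41% at days 3, 7 and 14. Il6st with Lifr was found in 0%, 5.77% and 4.41% of them. Without thinning, the Il6st and Il11ra1 pair was seen in 58.5%, 48.6%, 75.1% and 79.8% of fibroblast-like cells, and the Il6st and Il6ra pair in 17.7%, 15.0% and 7.33% of monocyte/macrophage-like cells. In neutrophil-like cells, taken as the class with least Il6st, the Il6st and Il11ra1 pair was found in none of 191 and 93 thinned cells. A floor of 3 cells is 1.57% and 3.23% of these, and the exact upper limits of the share of cells with UMIs of both genes were 1.91% and 3.89%. Since Il6st itself was found in 3 and 0 of these thinned cells, the pair could hardly be seen there. The count therefore gives no background for the pairs in other classes.

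Socs3, the feedback inhibitor, was highest in neutrophil-like cells at days 3 and 7, at 745 CPM (681 to 813) and 790 (702 to 886). Monocyte/macrophage-like cells had 163 CPM (152 to 174), 391 (378 to 404) and 539 (501 to 578) at days 3, 7 and 14, and dendritic-like cells 140 (125 to 156), 319 (303 to 336) and 409 (345 to 481). The level thus stepped up from each day to the next in both classes, with ratios to day 3 of 3.31 (2.99 to 3.65) and 2.92 (2.38 to 3.57) at day 14. Over days 0, 3, 7 and 14, fibroblast-like cells had 81.8 CPM (70.4 to 94.6), 62.7 (56.2 to 69.8), 141 (131 to 152) and 237 (227 to 248). At day 3 their Socs3 level was below that of day 0 by a ratio of 0.767 (0.638 to 0.924). As a mean of each cell's CPM this ratio was 1.20, on the other side of 1.

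Smooth muscle-like cells had 9.88 CPM of Socs3 from 1 UMI at day 0 and 28.2, 40.0 and 38.7 later, the lowest level of the wall cells at days 7 and 14. Endothelial-like cells had 24.8, 218 and 2106 CPM at days 3, 7 and 14, the last from 113 UMIs in 5 of 24 cells, with 53 in 1 cell. The monocyte/macrophage markers in these cells were at 184, 186 and 4473 CPM on these days, and their part in the Socs3 level was not tested. T cell-like cells, of which the day 0 library held 18, had 35.0 CPM then and 85.1, 137 and 124 later. NK cell-like cells had 65.2, 146 and 95.3 CPM after injury. Among fibroblast-like clusters present at days 0 and 14, Socs3 was at 80.7 CPM (67.4 to 95.8) and 277 (241 to 317) in that led by Rbp4, and at 105 (76.1 to 142) and 122 (83.1 to 174) in that led by Clec3b. The higher level of day 14 was therefore found in the former and not resolved in the latter.

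Immediate-early and heat-shock genes respond to tissue digestion, and 13 of them, Fos, Jun, Egr1 and Nfkbia among them, were read beside Socs3. In fibroblast-like cells 4, 5 and 7 of the 13 were past 2-fold higher than at day 0 at days 3, 7 and 14, against 11.7%, 10.9% and 9.25% of all genes counted, and none was lower, with Hspa1a and Hspa1b within 2-fold on each day, and in monocyte/macrophage-like cells 10 and 11 were higher than at day 3 at days 7 and 14, against 6.04% and 6.07%, and none was lower. Their summed level was 4482, 4746, 7677 and 9868 CPM in fibroblast-like cells at days 0, 3, 7 and 14, 5657, 12359 and 18372 in monocyte/macrophage-like cells at days 3, 7 and 14, and 3933, 8395 and 12830 in dendritic-like cells. At days 3 and 7 it was highest in neutrophil-like cells, at 32665 and 32537 CPM, as was Socs3, and at day 14 both were highest in endothelial-like cells, where the sum was 20073 CPM. In smooth muscle-like cells the sum was highest at day 0, with 14552 CPM, and was at 8083, 8593 and 8982 later. In endothelial-like cells both were higher on each later day, with sums of 3265 and 5740 CPM at days 3 and 7. In NK cell-like cells both were higher at day 7 (5225 CPM in sum) than at day 3 (3976), while at day 14 the sum was higher still (9673) and Socs3 was lower. In T cell-like cells the sum was 2295, 4372, 4263 and 7400 CPM at days 0, 3, 7 and 14. Both the sum and Socs3 were above their day 0 values there on each later day. In fibroblast-like cells the sum and Il6 differed in their course, with Il6, as summed over the class, highest at day 3 and the sum at day 14, although in cells of up to 30000 UMIs Il6 was lowest at day 3 among the days after injury. Its part in the Socs3 levels was not tested.

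Each class was next read against its reference day, with a member counted as past 2-fold when its ratio was at least 2 or at most 0.5 and both sums together held at least 20 UMIs. In fibroblast-like cells, 8 of the 10 members could be counted at day 3, of which Il6 and Lif were past 2-fold higher and Il11ra1 and Lifr past 2-fold lower than at day 0, against 11.7% of all 11133 genes counted that were higher and 10.4% that were lower. At day 7, Il6, Il11 and Lif were higher and Il6ra and Lifr lower among 9 counted, against 10.9% and 8.1% of genes. By the mean of each cell's CPM, Il6ra (0.913) and Lifr (0.649) were within 2-fold at day 7. Il6ra was also within 2-fold without cells over 30000 UMIs (0.736, 0.378 to 1.36). At day 14, Il6, Il11 and Socs3 were higher and none lower among 9 counted, against 9.25% and 4.62%. The median ratio of the members was 1.04, 1.39 and 1.19, and that of all genes counted was 0.972, 0.986 and 0.989. Of these ratios, that of Lif at day 3 (0.702 to 8.43) and that of Il11 at day 14 (0.881 to 14.3) had intervals that included 1. Without cells over 30000 UMIs, no member was past 2-fold at day 3 and 2 were at day 7.

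In smooth muscle-like cells the day 0 reference rested on 15 cells and 101223 UMIs. At day 3, Osmr (3.65, 0.998 to 30.4) and Socs3 (2.86, 0.498 to 114) were past 2-fold higher and Il11ra1 and Lifr (0.490, 0.200 to 1.56) past 2-fold lower among 5 members counted, against 11.1% and 14.7% of genes. The interval of Il11ra1 alone excluded 1. With at least 500 genes and at most 10% mitochondrial UMIs, the Lifr ratio of day 3 was 1.61 (0.275 to 65.1), on the other side of 1. By the same filter it was 3.86 (0.621 to 160) at day 7 and 3.26 (0.555 to 132) at day 14. At days 7 and 14, Osmr and Socs3 were higher and none lower among 5 counted, against 13.3% and 9.17% of genes at day 7 and 10.4% and 10.6% at day 14. With 2 Osmr UMIs and 1 Socs3 UMI at day 0, the ratio of Osmr was 3.92 (1.06 to 32.9) at day 7 and 2.08 (0.547 to 17.6) at day 14, and that of Socs3 was 4.05 (0.693 to 163) and 3.92 (0.670 to 158), so that the interval of Osmr at day 7 alone excluded 1. At day 14, 1 member was past 2-fold by the mean of each cell's CPM, and 1 without the cell richest in each gene. Without cells over 30000 UMIs, 1 member was past 2-fold at day 3.

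In monocyte/macrophage-like cells, Il6 (3.81, 1.71 to 9.99), Osm (2.71) and Socs3 (2.40, 2.22 to 2.59) were past 2-fold higher at day 7 than at day 3 and no member was lower among 8 counted, against 6.04% and 4% of genes. At day 14, Socs3 was higher and Lif (0.326, 0.0372 to 1.33) lower among 7 counted, against 6.07% and 9.15%. The receptor chains Il6st and Il6ra stayed within 2-fold of day 3 on both days, and Lifr did so as well.

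**Figure D5:**
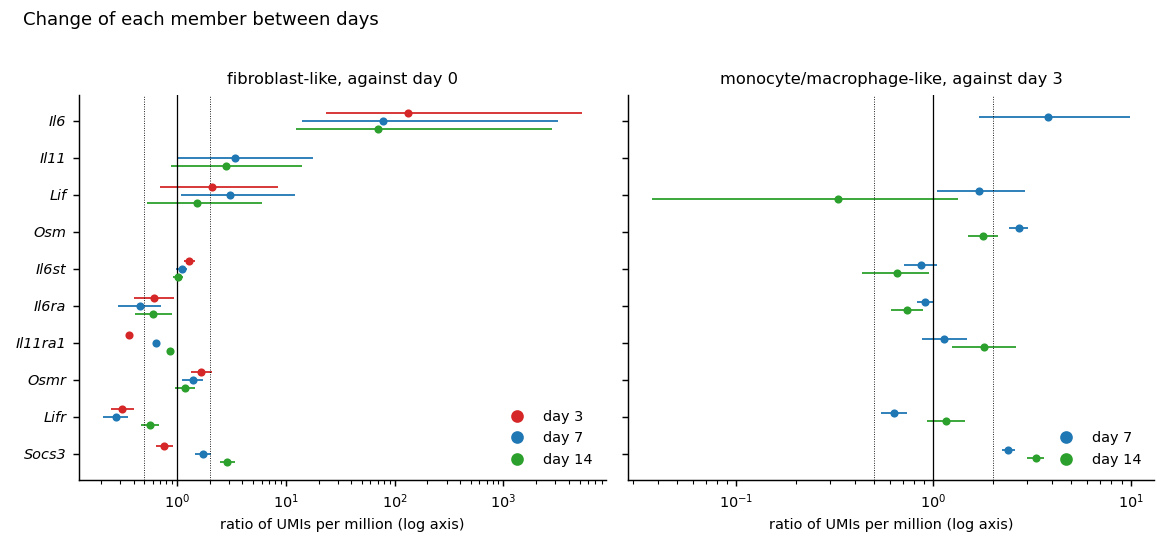
Ratio of the level of each member to the reference day (x axis, log scale), in fibroblast-like cells against day 0 and in monocyte/macrophage-like cells against day 3, with 95% intervals and dotted lines at 0.5 and 2. Members with fewer than 20 UMIs over both sums are not drawn. Il6 lies farthest to the right in fibroblast-like cells, with wide intervals, and Socs3 is higher at each later day in monocyte/macrophage-like cells.

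The other genes of the pathway were read in the same way, but the ratios of the alternatives were those of the members only. At day 3 the 68 fibroblast-like cells over 30000 UMIs held 4620677 of the 5308598 UMIs of the class, and day 0 had no such cell. Their part in the fibroblast-like ratios of the pathway lists and of the genes that respond to tissue digestion was not tested. Among the further ligands of the family, Clcf1, which encodes a ligand that acts through the CNTF receptor, had 51 UMIs in fibroblast-like cells at day 3 against 0 at day 0. With a floor of 3 UMIs per class and library in place of the 0, the ratio was 7.12. Cntfr, the receptor chain for this ligand, was lower in fibroblast-like cells, at 21.6 CPM at day 0 and 6.59 (0.306, 0.192 to 0.482) and 5.99 (0.278, 0.170 to 0.447) at days 3 and 7, with a ratio of 0.556 (0.392 to 0.799) at day 14.

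The JAK-STAT relay carries the signal from Il6st to the nucleus. In fibroblast-like cells at day 3, the kinase Jak2 was at 35.2 CPM against 16.6 at day 0 (2.12, 1.48 to 3.10) and the transcription factor Stat5a at 15.1 against 6.74 (2.23, 1.28 to 4.18), both past 2-fold higher. At day 7 their ratios were 1.92 (1.34 to 2.83) and 1.57 (0.872 to 3.00). Stat3, the main factor downstream of Il6st, stayed within 2-fold, with ratios of 1.44 (1.21 to 1.72), 1.86 (1.57 to 2.22) and 1.42 (1.20 to 1.69) at days 3, 7 and 14. Stat5b, at 0.731 (0.505 to 1.07), had the smallest ratio of the relay genes at day 3. In monocyte/macrophage-like cells Stat3 had ratios to day 3 of 1.21 (1.11 to 1.32) at day 7 and 0.809 (0.680 to 0.959) at day 14, also within 2-fold. Of the 7 other negative regulators, such as Socs1 and Ptpn2, none of 5 counted was past 2-fold in fibroblast-like cells at days 3 and 7, and at day 14 Cish was past 2-fold higher among 6 counted, from 27 UMIs against 2 (3.34, 0.839 to 29.0), where 11.7%, 10.9% and 9.25% of all genes counted were higher and 10.4%, 8.1% and 4.62% lower. In monocyte/macrophage-like cells Socs1 was at 26.6 CPM at day 7 against 10.3 at day 3 (2.57, 1.90 to 3.53), and Cish was lower there at day 14 (0.326, 0.115 to 0.748).

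The 16 genes listed as STAT3-associated response genes, most of which answer other signals too, were read last. In fibroblast-like cells at day 3, 9 of the 16 were past 2-fold higher and 2 lower than at day 0, with a median ratio of 3.08 against 0.972, where 11.7% of all genes counted were higher and 10.4% lower. Saa3, an acute-phase protein, had 19116 UMIs against 0, a ratio of 2670 with the floor of 3 UMIs in place of the 0. Ccl2, a monocyte attractant, was at 954 CPM against 0.45 from 1 UMI (2122, 381 to 83841). Cebpd (0.300, 0.282 to 0.320) and Fgl2 (0.261, 0.221 to 0.309) were lower. As for the other lists, these values of day 3 rest mostly on the cells over 30000 UMIs, and they were not read without them. At day 7, 10 of 16 were higher and none lower (median 2.71), against 10.9% and 8.1% of genes, and at day 14, 5 of 15 counted were higher and none lower (median 1.24), against 9.25% and 4.62%. In monocyte/macrophage-like cells most of the list stayed within 2-fold of day 3, with 1 higher and 2 lower of 15 counted at day 7 (median 1.17 against 0.922 for all genes, of which 6.04% were higher and 4% lower), and 1 higher and 5 lower of 14 at day 14 (median 0.912 against 0.908, with 6.07% and 9.15%). There Junb, a gene of the AP-1 family, was at 985, 2188 and 3908 CPM at days 3, 7 and 14, while Saa3 had 856, 66 and 0 UMIs.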

How the data were processed

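Single-cell RNA-seq was made from 4 pools of carotid arteries, 1 library per time point. Per the file headers, the deposited matrices of UMI counts came from Cell Ranger 3.0.2, and the authors applied no normalization to these counts. The submitters' processing notes name the build as GRCh38, a human name, so no coordinate was taken from the files. Barcodes with at least 200 genes and at most 20% mitochondrial UMIs were kept (453 of 6161 failed). Scrublet's own threshold marked 15 doublets, so the highest scores were removed at 0.8% per 1000 barcodes of a library (106 marked, some of which had also failed these filters, so that 5619 barcodes were kept). Cells of all libraries were clustered with scanpy 1.11.5 and leidenalg 0.10.2 (2000 variable genes without the members and pathway genes, 30 principal components, 15 neighbours, resolution 1) into 29 clusters, which were named where at least 3 class markers stood out. Cells of the cycling cluster took the class of their nearest neighbours. UMIs were summed per class and library and given as CPM with exact 95% intervals (scipy 1.17.1), which cover counting error only. With 1 library per group there was no test. The ratio and interval code was tested on simulated data.

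The members, the marker lists and the pathway lists were chosen with earlier results of these data known. All 10 members are named in each class with at least 15 cells, and of each pathway list up to 2 genes with the largest and 2 with the smallest ratio are named, among genes with at least 20 UMIs over both sums, except that some genes of these lists are not reported here, nor are the counts that rest on them. Jak2, Stat5a and Stat3 were named after their values were seen. A gene at 0 in 1 sum was set to a floor of 3 UMIs. Alternatives were other clusterings, filters, scalings, minimum counts and depths of thinning, and the sums without deep cells. The sums without the cell richest in a gene and without a shallow cluster led by Acp5 were added after seeing the data. The authors' cell annotation was not used here.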

Additional observations from a re-analysis of the deposited data

Results flagged for a closer look

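Some members differed between days in opposite directions in 2 classes, each with an interval on its side of 1. These differences between classes were not tested, since each day was 1 library, and with many classes and genes compared some such pairs arise by chance. From day 3 to day 7, the ratio of Il6 was 3.81 (1.71 to 9.99) in monocyte/macrophage-like cells and 0.597 (0.494 to 0.720) in fibroblast-like cells, where it was 25.5 without the cells over 30000 UMIs and 1.96 as a mean of each cell's CPM, so the directions were then not opposite. Lif, over the same days, was at 1.70 (1.04 to 2.90) in monocyte/macrophage-like cells and at 0.249 (0.121 to 0.530) in T cell-like cells, where 12 of the 14 UMIs of day 3 came from 1 cell, and without the richest cell of each day the latter ratio was 1.23. Osmr was at 3.95 (1.62 to 12.5) in endothelial-like cells, from 5 UMIs at day 3, and at 0.834 (0.721 to 0.963) in fibroblast-like cells, which turned to 1.21 and 1.69 under the same 2 alternatives as Il6. Lifr was at 2.04 (1.41 to 2.95) in smooth muscle-like cells, or 1.39 (0.989 to 1.95) without removal of doublets, and at 0.630 (0.501 to 0.793) in dendritic-like cells. Il6st was at 2.71 (1.93 to 3.91) in endothelial-like cells, or 7.13 and 10.2 under the 2 alternatives given for Il6, and at 0.852 (0.784 to 0.926) in fibroblast-like cells, which turned to 1.32 and 1.09 under them.

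From day 7 to day 14, Il6 was at 187 (68.6 to 712) in endothelial-like cells, where 45 of 51 UMIs came from 1 cell, and at 0.134 (0.00333 to 0.787) in monocyte/macrophage-like cells. Lif was at 3.02 (1.42 to 6.24) in T cell-like cells, or 7.45 with each library clustered on its own, and at 0.191 (0.0227 to 0.720) in monocyte/macrophage-like cells, the latter from 2 UMIs at day 14. Il6st was at 2.70 (2.07 to 3.48) in endothelial-like cells, with 33 of 72 UMIs of day 14 in 1 cell, and at 0.378 (0.147 to 0.814) in T cell-like cells. The former was 1.65 without the cells over 30000 UMIs and the latter 0.115 without the richest cell of each day.

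Cells that met no class entered no comparison, and 3 of their levels had a ratio to the unnamed cells of day 0 whose lower bound was above 2. Il6ra was at 61.9 CPM at day 3, against 0 UMIs at day 0. Socs3 was at 217 CPM at day 7 and 311 CPM at day 14, against 28.6 CPM from 4 UMIs at day 0.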

How the results depend on the processing

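With 1 library per day there is no replicate to leave out, and only counting error is known. No paired analysis was possible because each group is 1 library. Over the alternatives, 672 of 743 ratios of members stayed within their interval, 57 were counted as moved and 14 as turned in direction. Some ratios counted as moved also crossed 1. Among them were those of Lifr to day 0 in smooth muscle-like cells at days 3 and 14. These were 1.61 and 3.26 with at least 500 genes and at most 10% mitochondrial UMIs. Of 88 counts of members past 2-fold, 78 stayed within 1.5 times, and 51 of 64 source shares stayed within their interval. Of 24 co-detection shares, 16 moved, chiefly because thinning sets the depth of each cell. Without the Acp5 cluster no value moved. The causes of the changes below were not tested.

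With each library clustered on its own, 3 members were past 2-fold in fibroblast-like cells at day 7, the fibroblast-like share of Il6 was 95.03% at day 3, the monocyte/macrophage-like share of Osm was 37.7% at day 3 and 71.2% at day 14, and the fibroblast-like ratios to day 0 of Il6st at day 3 (0.926) and Il11ra1 at day 14 (1.07) turned direction. The fibroblast-like share of Il6 at day 7 was 72.8% at resolution 1.5 and 75.8% with at least 500 genes and at most 10% mitochondrial UMIs, where that of day 3 was 94.99%. Without cells over 30000 UMIs, 0 and 2 members were past 2-fold in fibroblast-like cells at days 3 and 7 and 1 in smooth muscle-like cells at day 3, the fibroblast-like share of Il6 was 6.25% and 37.8% at days 3 and 7, the monocyte/macrophage-like share of Osm was 74.0% at day 7, and in fibroblast-like cells Il6ra at day 3 turned to 1.54 and the ratios of day 7 to day 3 turned for Il6 (25.5), Osmr (1.21) and Il6st (1.32). By the mean of each cell's CPM, 1 member was past 2-fold in fibroblast-like cells at day 3 and 1 in smooth muscle-like cells at each of days 3 and 14, and 7 ratios turned: Il6 (1.96), Osmr (1.69) and Il6st (1.09) from day 3 to day 7 in fibroblast-like cells, Il6ra (1.94) and Socs3 (1.20) at day 3 and Il6ra at day 14 (1.36) in the same cells, and Il6st at day 14 in monocyte/macrophage-like cells (1.02). Without the cell richest in each gene, chosen after seeing the data, 2 and 1 members were past 2-fold in smooth muscle-like cells at days 3 and 14 and 1 in monocyte/macrophage-like cells at day 14, the fibroblast-like shares of Il6 were 96.4%, 62.0% and 97.2%, the monocyte/macrophage-like share of Osm was 74.2% at day 7, and the ratio of Lif from day 3 to day 7 in T cell-like cells turned to 1.23.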

Other observations

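Dendritic-like cells fell into a cluster led by Cd209a and Clec10a and a cluster led by Ccr7 and Ccl22, the latter being the genes of dendritic cells that migrate to lymph nodes. The cluster led by Cd209a had 125 CPM of Il6ra (109 to 142) at day 3 and 117 (107 to 129) at day 7, whereas the cluster led by Ccr7 had 21.3 (8.58 to 44.0) and 16.0 (7.31 to 30.3). Lifr was split in the same way, at 73.1 and 44.3 CPM in the former and 3.05 and 7.11 CPM in the latter. Osm at day 7 went the other way, at 48.5 CPM (41.8 to 56.1) and 83.5 (61.3 to 111.0).

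The genes whose level was most like that of a member were sought over 27 class-by-library sums among 7846 genes, by Pearson's r of log2(CPM + 10). The sums share libraries and classes, so r is given as a description. Among them were the 24 endothelial-like cells of day 14, where Il6 was at 951 CPM, mostly from 1 cell. The next highest sum had 59.5 CPM of Il6, in fibroblast-like cells of day 3, and r without the former sum was not computed. Meox1 was most like Il6 (r = 0.963), Rnf149, Cd33 and Clec5a were most like Osm (0.967, 0.954 and 0.952), and Eng was most like Il6st (0.912). Rhoj and Fbln2 were most like Osmr (0.954 and 0.952) and Anxa4 was most like Lifr (0.942). For Socs3 the highest value was lower, at 0.821 for Mctp1.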
